A study of Mus musculus with 9 samples.

Results

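The 9 genes examined here encode costimulatory and checkpoint molecules of T cells: Cd28, Icos, Pdcd1, Btla, Cd200, Tigit, Cd160, Lag3 and Havcr2. They were chosen by symbol, with earlier results of these data known, as 9 of the 24594 genes in the expression table. All 9 were in the table. A T cell receptor that binds its ligand signals more strongly when CD28, the main costimulatory receptor, or its relative ICOS is engaged by ligands on the same antigen-presenting cell. Checkpoint receptors such as PD-1, BTLA, TIGIT, CD160, LAG-3 and TIM-3 carry or recruit inhibitory activity and dampen that signal, and many of them are known to be induced by stimulation through the T cell receptor itself. In the thymus such signals accompany the selection of developing T cells, including the removal of cells that recognize self-antigen. CD200 differs from the rest, since it is a surface ligand whose receptor, CD200R1, is found mainly on myeloid cells.

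RNA was sequenced from thymocytes of mixed bone marrow chimeras, in which irradiated hosts were reconstituted for 4.7 weeks, and 9 libraries fell into 4 groups. The transgenic OT-II T cell receptor, which all sorted cells carried, recognizes ovalbumin. Cells were sorted as CD4+ CD8- CD69+ Valpha2+ VBeta5+. Donors were OT-II mice with Nr4a1+/+ and Nr4a3+/+ on an F1 background of BoyJ and B6.Cg-Tg(TcraTcrb)425Cbn/J, or OT-II mice labelled Nr4a1-/- and Nr4a3-/- (double knockout, DKO) on C57BL/6. Nr4a1 and Nr4a3 are nuclear receptors induced by T cell receptor signaling. WT hosts were BoyJ mice, and RIPmOVA hosts were F1 mice of BoyJ and the Tg(Ins2-TFRC/OVA)296Wehi/WehiJ line of C57BL/6, which make membrane-bound ovalbumin under the rat insulin promoter, in medullary thymic epithelium as well as in islets, kidney and testis. OT-II and DKO marrow were given to each host together with an excess of WT marrow without the transgene. There were n = 2 OT-II samples of WT hosts, n = 3 DKO-labelled samples of WT hosts, n = 2 OT-II samples of RIPmOVA hosts and n = 2 DKO-labelled samples of RIPmOVA hosts. Each replicate was a separate chimera, with 5 chimeras in all, and OT-II and DKO-labelled cells with the same number came from the same chimera. Donor background differed along with donor genotype in the labels, so these cannot be told apart. The labels also give hosts with and without the transgene different backgrounds, while the methods of the study give WT and RIPmOVA F1 progeny of one cross, so whether host background differed along with the transgene is not settled here. The deletion was in the germline of the donor and the hosts also held non-transgenic cells. In such bulk libraries fewer expressing cells and less RNA per cell cannot be told apart.

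Values were RPKM, reads per kilobase of exon scaled to the exonic reads of the library, and 15519500 to 25053000 reads per library could be recovered from them. Genes that mark CD4 single-positive thymocytes (6 of 8 listed were in the table) summed to 961 to 1175 RPKM. Exon sums of the targeted genes did not separate the labels: Nr4a1 was 60.1 to 87.7 RPKM in WT hosts and 229 to 282 RPKM in RIPmOVA hosts with both genotypes overlapping, and Nr4a3 was higher in DKO-labelled (14.1 and 16.5 RPKM) than in OT-II samples (3.72 and 5.66 RPKM) of RIPmOVA hosts. Since a deletion need not remove reads from the whole gene, these sums did not check the label, and libraries are called DKO-labelled throughout. The summed RPKM of 1461 sensory receptor genes, which thymocytes are not known to use, differed between libraries. It was 428 and 440 RPKM in OT-II replicate 1 and DKO-labelled replicate 2 of WT hosts, 473 and 633 RPKM in both DKO-labelled samples of RIPmOVA hosts, and 73.2 to 200 RPKM in the other 5 libraries. Results of the genes examined here that rest on low values were therefore also fitted with that sum as a covariate. They were also fitted without both of those WT-host libraries. Either fit is given where it moved a call. For other genes named below, calls are from the fit with all libraries and no covariate. Whether those calls hold in the other fits is not given. The DKO-labelled pair of RIPmOVA hosts could not be left out together, since no other library is in that group.

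The 9 genes spanned a wide range of levels. Cd28, with a mean over 9 libraries of 137 RPKM, was higher than Icos, at 71.9 RPKM, in every library. Pdcd1 (32.1 RPKM) and Btla (28.2 RPKM) followed, and their order depended on the host: Btla was above Pdcd1 in all 5 samples of WT hosts and below it in all 4 of RIPmOVA hosts. Cd200 had a mean of 13.3 RPKM and was lower than both in every library. Tigit (1.44 RPKM), Cd160 (1.43 RPKM) and Lag3 (1.01 RPKM) lay near 1 RPKM and reached at least 1 RPKM in 4, 4 and 3 libraries. Their order was not tested and changed between groups. In RIPmOVA hosts Lag3 was the lowest of them in both OT-II samples and the highest in both DKO-labelled samples. Havcr2, which encodes TIM-3, was lowest at 0.54 RPKM. It reached 1 RPKM in 1 library and so missed the filter of at least 1 RPKM in at least 2 libraries, which the other 8 genes passed. From the highest to the lowest library, values varied 1.49-fold for Cd28, 1.46-fold for Icos and 1.56-fold for Btla, 2.73-fold for Pdcd1 and 3.77-fold for Cd200. At the other end, Cd160 varied 19.1-fold, Lag3 43.7-fold and Tigit 151-fold, the last resting on 1 read in the lowest library.

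**Figure D1:**
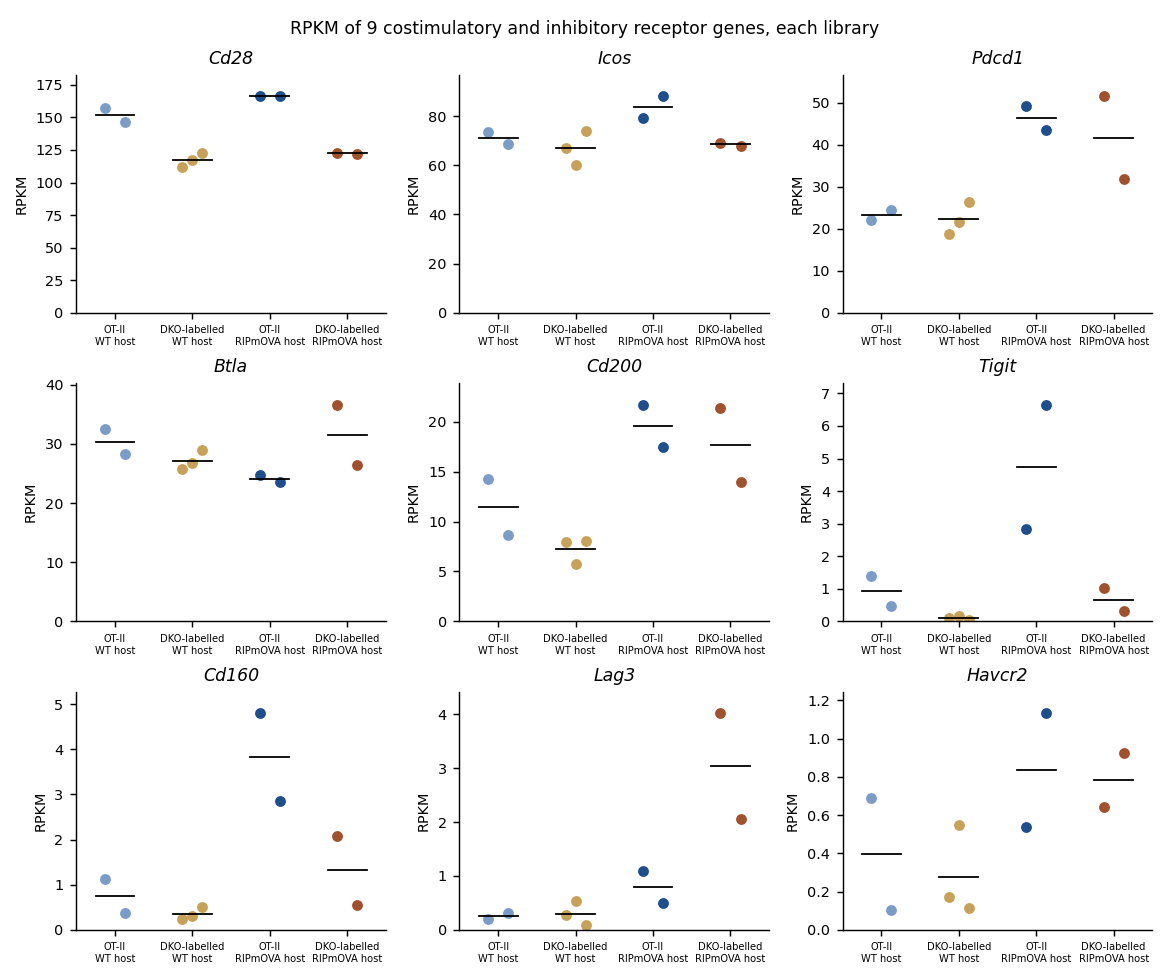
RPKM of the 9 genes (y axis, linear from 0, own scale per panel) in each library by group of donor genotype and host (x axis), with points for libraries and a line for the group mean. Pdcd1 sits at 31.7 RPKM or more in all 4 samples of RIPmOVA hosts and at 26.3 RPKM or less in all 5 of WT hosts, and Cd28 sits at 147 RPKM or more in all 4 OT-II samples and at 123 RPKM or less in all 5 DKO-labelled samples.

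In GRCm38, the build that mm10 names, Cd28 lies on chromosome 1 at chr1:60716800-60773359 (plus strand), with Icos downstream at chr1:60977927-61000320 (plus), and Pdcd1 lies on the same chromosome at chr1:94038305-94052553 (minus). Tigit (chr16:43648867-43664146, minus), Btla (chr16:45224315-45257670, plus) and Cd200 (chr16:45382135-45409053, minus) share chromosome 16. Cd160 is at chr3:96798763-96829351 (minus), Lag3 at chr6:124904361-124911705 (minus) and Havcr2 at chr11:46454935-46481255 (plus). All 9 are protein-coding. Pdzk1, on the other strand, overlaps an exon of Cd160, and since the use of strand in counting was not given in the sources used here, reads in that overlap could not be assigned with certainty. Pdzk1 itself was at 0.074 RPKM or less in every library. No other annotated gene touched an exon of the 9 genes.

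RefSeq promoters (GRCm38.p6) were given for 6 of the 9 genes: Pdcd1, Btla, Cd200, Tigit, Cd160 and Havcr2. The 250 bases before the start were searched on both strands for AAAGGTCA (the element that NR4A monomers bind), GGAAA (the core that NFAT proteins bind), TGANTCA (AP-1) and GCGNGGGCG (EGR proteins). No motif overlapped another in these windows. AAAGGTCA was in none of the 7 windows of these 6 genes (Cd160 has a pair of starts), and 1.34% of the 32851 promoters in the table held it. The promoters of the genes whose levels are set side by side between hosts below are printed 5′ to 3′ on the strand of the gene, ending 1 base before the start, with GGAAA or its reverse complement TTTCC and GCGNGGGCG in capitals. They are Pdcd1 (chr1:94052554-94052803, minus), Cd200 (chr16:45409054-45409303, minus), Tigit (chr16:43664185-43664434, minus) and the start of Cd160 that held a motif (chr3:96814522-96814771, minus).
Pdcd1: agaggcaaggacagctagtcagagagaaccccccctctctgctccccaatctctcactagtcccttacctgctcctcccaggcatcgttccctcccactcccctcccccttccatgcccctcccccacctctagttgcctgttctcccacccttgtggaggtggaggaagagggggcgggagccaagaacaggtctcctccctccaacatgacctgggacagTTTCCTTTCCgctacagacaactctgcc
Cd200: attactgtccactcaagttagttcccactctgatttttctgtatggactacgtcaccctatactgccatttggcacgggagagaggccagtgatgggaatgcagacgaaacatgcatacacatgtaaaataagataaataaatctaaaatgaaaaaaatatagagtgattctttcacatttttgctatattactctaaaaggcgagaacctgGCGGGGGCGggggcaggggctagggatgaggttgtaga
Tigit: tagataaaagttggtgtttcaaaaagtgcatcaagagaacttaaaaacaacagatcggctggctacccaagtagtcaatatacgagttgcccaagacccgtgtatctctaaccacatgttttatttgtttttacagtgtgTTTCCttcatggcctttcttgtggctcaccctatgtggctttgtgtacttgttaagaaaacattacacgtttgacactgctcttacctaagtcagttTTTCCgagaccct
Cd160: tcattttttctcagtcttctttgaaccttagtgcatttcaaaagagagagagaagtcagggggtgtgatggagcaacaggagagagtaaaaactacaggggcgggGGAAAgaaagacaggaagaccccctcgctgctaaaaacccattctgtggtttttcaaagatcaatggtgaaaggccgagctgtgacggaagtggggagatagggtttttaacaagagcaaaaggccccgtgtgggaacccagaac
The Pdcd1 window held a pair of adjacent TTTCC runs, starting 28 and 23 bases before the start. Tigit held TTTCC at 110 and 13 bases before the start, and this Cd160 window held GGAAA at 145 bases. GGAAA on either strand was in 55.6% of all promoters. Cd200 held GCGNGGGCG at 38 bases before the start, which 4.70% of all promoters held. The Havcr2 window (chr11:46454681-46454930, plus) held TGANTCA at 200 bases before the start, a motif in 6.75% of all promoters, and the Btla window (chr16:45224087-45224336, plus) held none of the motifs searched.

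The first question was how the levels differed between hosts with and without the ovalbumin self-antigen. Among the inhibitory genes, Pdcd1, which encodes PD-1, was about 2-fold higher in RIPmOVA hosts in both genotypes, Cd200 and Lag3 were called higher in DKO-labelled samples, and Tigit, Cd160 and Lag3 were called higher in the average over both genotypes. Cd200 was also higher in RIPmOVA hosts in OT-II samples (1.71-fold), where it was not called. Costimulatory Cd28 and Icos and inhibitory Btla did not pass in any host comparison. Calls needed an adjusted p in limma of no more than 0.05 together with a log2 fold change of 1 or more in size, on the log2(RPKM + 0.5) scale, which understates the change of low genes. In OT-II samples 0 of the 8 genes tested were called between hosts, against 1.23% of the 11569 genes tested. At an unadjusted p of 0.05 or less there were 4 of the 8, against 14.3% of all genes. In DKO-labelled samples 2 of 8 were called, both higher in RIPmOVA hosts, against 1.68% of all genes, and the same 2 passed on adjusted p alone (3.35% of all genes). For the average of the host effects in the 2 genotypes, 3 of 8 were called, all higher, against 1.87% of all genes. On adjusted p alone there were 5, against 6.75% of all genes. In WT hosts Tigit and Cd160 reached 1 RPKM only in OT-II replicate 1 (1.40 and 1.12 RPKM). Lag3 stayed at 0.527 RPKM or less there. These 3 thus passed the filter on low values only through RIPmOVA hosts, which ties their tests to high levels there. With no filter, Lag3 alone kept its average call (adjusted p of 0.082 for Tigit and 0.08 for Cd160 in limma). For the 8 genes the median log2 fold change between hosts was 0.75 (OT-II) and 0.88 (DKO-labelled), where that of all genes tested was -0.02 and 0.03. Since the genes were chosen with earlier results of these data known, these counts and medians are not independent evidence.

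Pdcd1 was 22.1 and 24.4 RPKM in OT-II samples and 18.8, 21.7 and 26.3 RPKM in DKO-labelled samples of WT hosts. In RIPmOVA hosts it was 49.1 and 43.4 RPKM in OT-II and 51.5 and 31.7 RPKM in DKO-labelled samples. All 4 samples of RIPmOVA hosts were thus above all 5 of WT hosts, and 1 of the 9 genes separated the hosts this way, where 8.39% of all genes tested did in either direction. The group means were 1.99-fold apart in OT-II and 1.87-fold apart in DKO-labelled samples. The log2 fold change was 0.97 in OT-II (SE 0.22, adjusted p = 0.064 in limma) and 0.86 in DKO-labelled samples (SE 0.20, adjusted p = 0.054), so neither was called. Averaged over both genotypes it was 0.92 (SE 0.15, 95% interval 0.58 to 1.25, adjusted p = 0.0074), which passed on adjusted p but lay under the fold limit. It passed on adjusted p in all 21 alternatives for that average, with values of 0.74 to 1.09. The DKO-labelled pair of RIPmOVA hosts was wide apart for Pdcd1, with an SD of 14.0 RPKM around a mean of 41.6 RPKM, and without its replicate 2 the host effects passed the fold limit as well and were called (adjusted p = 0.011 in DKO-labelled samples, and 1.09 with adjusted p = 0.0015 for the average). Without its replicate 1 the host effect in DKO-labelled samples was 0.51 (adjusted p = 0.36) and the average was 0.74 (adjusted p = 0.015).

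Cd200 was 14.3 and 8.69 RPKM in OT-II and 7.93, 5.75 and 8.03 RPKM in DKO-labelled samples of WT hosts. In RIPmOVA hosts it was 21.7 and 17.5 RPKM in OT-II and 21.4 and 14.0 RPKM in DKO-labelled samples. Within each genotype the hosts did not overlap, but 1 OT-II library from a WT host lay above 1 DKO-labelled library from a RIPmOVA host. Cd200 rose 2.44-fold in DKO-labelled samples (log2 fold change 1.22, SE 0.24, adjusted p = 0.03 in limma). In OT-II samples the means were 1.71-fold apart (log2 fold change 0.78, SE 0.27, adjusted p = 0.22). The average over genotypes passed on adjusted p (0.013), and its log2 fold change of 0.998 fell just short of the fold limit. The adjusted p of that average passed in 19 of 21 alternatives, and was 0.068 without OT-II replicate 1 and 0.054 without DKO-labelled replicate 1 of RIPmOVA hosts. With the replicate number that chimeras share across hosts as a replicate block it was called (1.04, adjusted p = 0.0027). The call in DKO-labelled samples was lost with no filter (adjusted p = 0.052 in limma), with no intensity trend (0.077) and with the sensory receptor sum as a covariate (1.16, adjusted p = 0.22). It was also lost without any of the 3 DKO-labelled samples of WT hosts (adjusted p of 0.067 to 0.083). The same held without either OT-II library of RIPmOVA hosts (log2 fold change 1.22) and without DKO-labelled replicate 1 of RIPmOVA hosts (0.92).

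Lag3 encodes LAG-3, an inhibitory receptor that binds MHC class II. It was 0.209 and 0.320 RPKM in OT-II and 0.284, 0.527 and 0.092 RPKM in DKO-labelled samples of WT hosts, or 5 to 23 reads a library. In RIPmOVA hosts it was 1.09 and 0.497 RPKM in OT-II samples (39 and 26 reads) and 4.02 and 2.07 RPKM in DKO-labelled samples (178 and 78 reads). The DKO-labelled pair of RIPmOVA hosts was thus the highest of the 4 groups, and no other library reached it. Lag3 rose in DKO-labelled samples, with a log2 fold change of 2.12 (SE 0.38, adjusted p = 0.019 in limma), and pooled reads per sequenced read were 10.9-fold higher (exact 95% interval 7.89 to 15.5, counting error only). In OT-II samples the log2 fold change was 0.72 (SE 0.42, adjusted p = 0.49) and pooled reads were 2.68-fold higher (1.64 to 4.52). The average over genotypes was called (1.42, SE 0.28, adjusted p = 0.019). The sensory receptor sum was also highest in that DKO-labelled pair, and with the sum as a covariate the call in DKO-labelled samples was lost (log2 fold change 1.84, adjusted p = 0.12) and the average kept it (1.38, adjusted p = 0.019). Without both WT-host libraries with high sums the call in DKO-labelled samples was kept (2.32, adjusted p = 0.023). The call in DKO-labelled samples was also lost without replicate 1 or 3 of the DKO-labelled samples of WT hosts (adjusted p = 0.069 and 0.075) or replicate 1 of RIPmOVA hosts (0.24), and the average was lost without replicate 1 of either genotype of RIPmOVA hosts (0.096 and 0.11). With the number shared across hosts as a replicate block, the adjusted p was 0.11 in DKO-labelled samples and 0.072 for the average.

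Tigit encodes an inhibitory receptor for nectin-family ligands. It was 1.40 and 0.471 RPKM in OT-II samples of WT hosts (20 and 10 reads) and 0.089, 0.162 and 0.044 RPKM in DKO-labelled samples of WT hosts (2, 3 and 1 reads), which is at or under the floor of 3 reads. In RIPmOVA hosts it was 2.84 and 6.65 RPKM in OT-II (43 and 148 reads) and 1.01 and 0.311 RPKM in DKO-labelled samples (19 and 5 reads). OT-II samples of RIPmOVA hosts were highest, and the DKO-labelled pair of RIPmOVA hosts lay within or below the range of OT-II samples of WT hosts. Pooled reads were 6.04-fold higher in RIPmOVA hosts in OT-II (exact 95% interval 4.09 to 9.20) and 7.34-fold higher in DKO-labelled samples (2.92 to 22.0), but replicates varied more than counting error. The log2 fold changes of 1.85 in OT-II (SE 0.48, adjusted p = 0.10 in limma) and 0.89 in DKO-labelled samples (SE 0.44, adjusted p = 0.33) were not called, and their average was (1.37, SE 0.33, adjusted p = 0.039). With the sensory receptor sum as a covariate the average was 1.36 (adjusted p = 0.054), so the call was lost. With the chimera as a replicate block that average had an adjusted p of 0.057, with the number shared across hosts as the block 0.13, and 6 of 20 alternatives kept the call (adjusted p of 0.03 to 0.16). It was kept without OT-II replicate 1 of WT hosts (0.03) and without DKO-labelled replicate 2 of RIPmOVA hosts (0.033), and lost without any other single library.

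Cd160 encodes an inhibitory receptor of T and NK cells that binds HVEM. It was 1.12 and 0.377 RPKM in OT-II and 0.251, 0.303 and 0.514 RPKM in DKO-labelled samples of WT hosts. In RIPmOVA hosts it was 4.80 and 2.86 RPKM in OT-II (246 and 215 reads) and 2.09 and 0.553 RPKM in DKO-labelled samples (133 and 30 reads). As for Tigit, both OT-II samples of RIPmOVA hosts were above the other 7. The log2 fold change was 1.82 in OT-II (SE 0.47, adjusted p = 0.10 in limma) and 0.96 in DKO-labelled samples (SE 0.43, adjusted p = 0.29), and the average was called at 1.39 (SE 0.32, adjusted p = 0.034). The average was lost without any single library other than OT-II replicate 1 of WT hosts or DKO-labelled replicate 2 of RIPmOVA hosts (adjusted p of 0.058 to 0.16 when lost), and 9 of 20 alternatives kept it. Without both samples of WT hosts with high sensory receptor sums it was 1.59, with an adjusted p that rounds to 0.05 and just missed, while Tigit (1.65, 0.044) and Lag3 (1.47, 0.039) kept the call.

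Havcr2 was 0.688 and 0.105 RPKM in OT-II and 0.173, 0.549 and 0.113 RPKM in DKO-labelled samples of WT hosts. In RIPmOVA hosts it was 0.538 and 1.13 RPKM in OT-II and 0.640 and 0.923 RPKM in DKO-labelled samples. Within WT hosts the higher values, 0.688 and 0.549 RPKM, were in the libraries with the high sensory receptor sums, and the part of that in the result was not tested. In a fit with no filter, its average host effect was 0.69 (SE 0.28, adjusted p = 0.33 in limma), which was not called.

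Some lists of marker genes of other cell types moved with these genes, and others did not. The 6 genes of the Treg list summed to 49.7 to 55.1 RPKM in OT-II and 25.8 to 29.2 RPKM in DKO-labelled samples of WT hosts. They summed to 136 to 154 RPKM in OT-II and 72.8 to 109 RPKM in DKO-labelled samples of RIPmOVA hosts. All 6 reached 1 RPKM in OT-II samples of RIPmOVA hosts, most of the sum was Tnfrsf18 (21.7 to 110 RPKM), and Foxp3, which defines Treg cells, was 0.037 to 3.31 RPKM. The 8 genes of the NK or innate-like T list summed to 1.68 to 5.33 RPKM in WT hosts, 25.2 to 30.6 RPKM in OT-II and 7.43 to 12.0 RPKM in DKO-labelled samples of RIPmOVA hosts, with 4 of 8 at 1 RPKM or more in OT-II samples of RIPmOVA hosts. Nkg7 reached 18.6 RPKM, while Klrb1c, Zbtb16 and Eomes stayed at 0.433 RPKM or less in every library. The myeloid and dendritic list summed to 33.1 to 52.8 RPKM in WT hosts and 54.5 to 96.2 RPKM in RIPmOVA hosts, mostly Cst3 and Cd74, with Itgax at 0.158 RPKM or less. All 3 lists had their lowest mean in DKO-labelled samples of WT hosts and their highest in OT-II samples of RIPmOVA hosts, as did Tigit and Cd160, and their part in those results was not tested. The 7 genes of the thymic epithelium list summed to 2.80 to 5.64 RPKM in WT hosts, 5.05 to 7.22 RPKM in OT-II and 8.42 to 12.1 RPKM in DKO-labelled samples of RIPmOVA hosts, mostly Epcam (2.24 to 10.2 RPKM), with Krt5 and Krt14 at 0.278 RPKM or less. This list was highest in the same pair as Lag3, and its part in that result was not tested. The B cell list overlapped between hosts (2.98 to 6.58 RPKM in WT hosts and 5.39 to 10.9 RPKM in RIPmOVA hosts). So did the double-positive or CD8 thymocyte list (113 to 122 RPKM and 77.8 to 117 RPKM) and the erythroid list (0.924 to 24.7 RPKM and 0.816 to 1.45 RPKM).

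**Figure D2:**
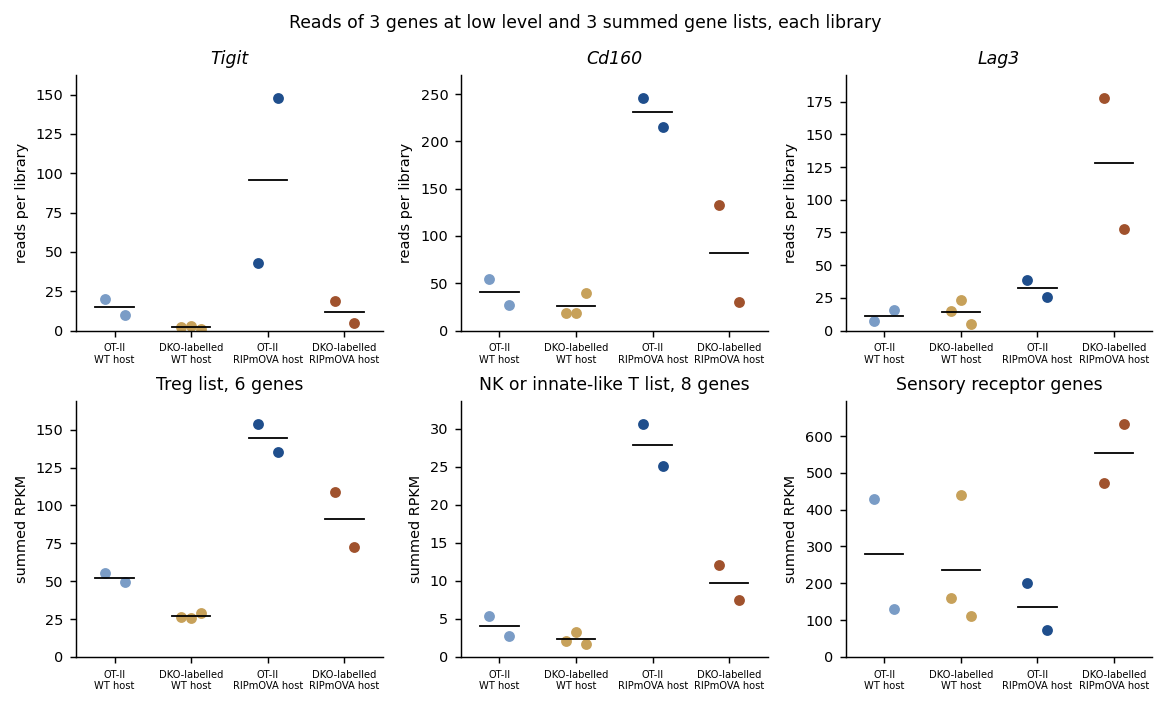
Reads of Tigit, Cd160 and Lag3 per library (top row, y axis from 0) and summed RPKM of the Treg list, the NK or innate-like T list and sensory receptor genes (bottom row, y axis from 0) by group (x axis), with points for libraries and a line for the group mean. Tigit peaks at 148 reads in an OT-II library from a RIPmOVA host, whose sensory receptor sum of 73.2 RPKM is the lowest of the 9, while Lag3 peaks at 178 reads in a DKO-labelled library from a RIPmOVA host.

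Btla encodes an inhibitory receptor that also binds HVEM. It was 32.5 and 28.3 RPKM in OT-II and 25.7, 26.8 and 28.9 RPKM in DKO-labelled samples of WT hosts, and 24.7 and 23.5 RPKM in OT-II and 36.6 and 26.5 RPKM in DKO-labelled samples of RIPmOVA hosts. In OT-II samples both values of RIPmOVA hosts were below both of WT hosts (log2 fold change -0.32, SE 0.15, adjusted p = 0.37 in limma), while in DKO-labelled samples the hosts overlapped (0.20, SE 0.13, adjusted p = 0.46). The difference between these host effects was 0.52 (SE 0.20, adjusted p = 0.51) and did not pass. Averaged over genotypes the host effect had a 95% interval of -0.29 to 0.16.

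Cd28 was 157 and 147 RPKM in OT-II and 112, 117 and 123 RPKM in DKO-labelled samples of WT hosts. It was 166 in both OT-II samples and 123 and 122 RPKM in DKO-labelled samples of RIPmOVA hosts. Its average host effect was 0.10 on the log2 scale (95% interval -0.03 to 0.22), so that a change of the size seen for Pdcd1 lay outside the interval. Icos was 73.5 and 68.6 RPKM in OT-II and 67.1, 60.2 and 73.8 RPKM in DKO-labelled samples of WT hosts, and 79.1 and 88.1 RPKM in OT-II and 69.1 and 67.8 RPKM in DKO-labelled samples of RIPmOVA hosts. Both OT-II values of RIPmOVA hosts were the highest of the 9, but the average host effect of 0.13 did not pass (95% interval -0.03 to 0.30, adjusted p = 0.36 in limma).

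**Figure D3:**
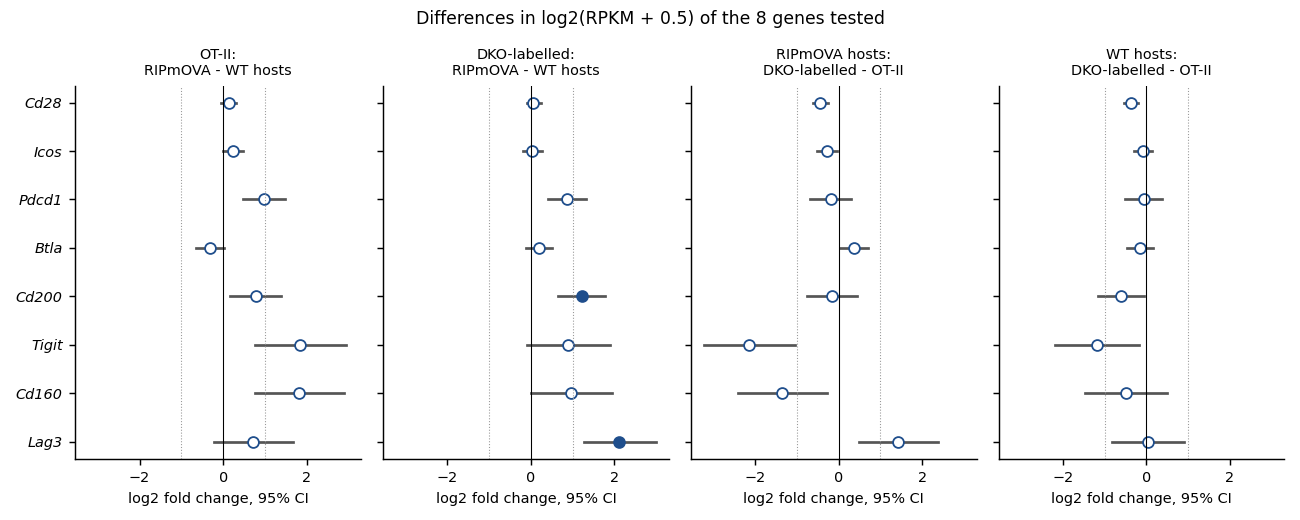
Log2 fold changes on the log2(RPKM + 0.5) scale (x axis) with 95% intervals for the 8 genes tested (y axis) in the 4 pairwise comparisons, with filled points for called genes and dotted lines at the fold limit of 1 in either direction. The 2 filled points are Cd200 (1.22) and Lag3 (2.12) in DKO-labelled samples between hosts, and the intervals of Cd28 and Icos are the narrowest.

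The next question was how the levels differed with donor genotype within each host. Cd28 was lower in DKO-labelled than in OT-II samples in both hosts (mean ratio 0.737 in RIPmOVA hosts and 0.771 in WT hosts), the Tigit mean of OT-II samples was 7.18 times that of DKO-labelled samples in RIPmOVA hosts (not called within that host), and Pdcd1 and Cd200 lay close together in RIPmOVA hosts. In RIPmOVA hosts 0 of 8 genes were called, against 1.07% of the genes tested, 1 passed on adjusted p alone, against 2.21%, and 6 had an unadjusted p of 0.05 or less, against 21.4%. In WT hosts 0 of 8 were called in limma, against 0.0605% of the genes tested, and 3 had an unadjusted p of 0.05 or less, against 7.89%. For the average of the genotype effects in the 2 hosts 1 of 8 was called, against 0.648%, and 2 passed on adjusted p alone, against 3.30%. The gene called was Tigit, at 1.01 RPKM or less in every DKO-labelled sample, so it passed the filter mostly through OT-II samples. With no filter the call was lost (adjusted p = 0.062 in limma). The comparisons between genotypes use the same libraries as those between hosts and are not independent of them.

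Cd28 in the 5 DKO-labelled samples (112 to 123 RPKM) did not overlap with that in the 4 OT-II samples (147 to 166 RPKM). It was the only one of the 9 genes to separate the genotypes this way, as 5.62% of all genes tested did in either direction. Its log2 fold change was -0.44 in RIPmOVA hosts (SE 0.08, adjusted p = 0.03 in limma) and -0.37 in WT hosts (SE 0.07, adjusted p = 0.13). The average of -0.41 (SE 0.06, 95% interval -0.53 to -0.28, adjusted p = 0.0074) passed on adjusted p in all 20 alternatives (adjusted p of 0.0047 to 0.048), with values of -0.43 to -0.37, and lay under the fold limit. In RIPmOVA hosts alone the adjusted p was 0.059 with the chimera as a replicate block, 0.065 with no filter, 0.07 with no intensity trend, 0.28 with the sensory receptor covariate, and 0.11 to 0.17 without any of the 4 samples of RIPmOVA hosts, while the log2 fold change was -0.46 with the covariate and -0.44 under the others. For Icos, downstream of Cd28 on chromosome 1, the average was -0.19 (95% interval -0.35 to -0.02, adjusted p = 0.21).

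Tigit was called for the average genotype effect, with a log2 fold change of -1.67 (SE 0.33, adjusted p = 0.031 in limma). The call was lost with the chimera as a replicate block (-1.63, adjusted p = 0.12) and with the sensory receptor covariate (-1.69, adjusted p = 0.092), as well as without both samples of WT hosts with high sensory receptor sums (-1.46, adjusted p = 0.075), and 8 of 19 alternatives kept it (adjusted p of 0.01 to 0.13). It was lost without OT-II replicate 1 (0.065) or any DKO-labelled library (0.059 to 0.070) of WT hosts, and without OT-II replicate 2 (0.13) or DKO-labelled replicate 2 (0.089) of RIPmOVA hosts. In RIPmOVA hosts, where the pairs did not overlap, Tigit differed by -2.14 (SE 0.48, adjusted p = 0.059 in limma). Pooled reads there were 7.42-fold higher in OT-II than in DKO-labelled samples (exact 95% interval 4.84 to 11.9, counting error only). In WT hosts they were 9.02-fold higher in OT-II samples (3.69 to 26.5), from 30 against 6 reads, with a log2 fold change of -1.19 (adjusted p = 0.54).

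Cd160 and Lag3 differed between the genotypes in opposite directions in RIPmOVA hosts, and neither was called. Cd160 had a log2 fold change of -1.35 (SE 0.47, adjusted p = 0.16 in limma), with pooled reads 2.64-fold higher in OT-II samples (exact 95% interval 2.20 to 3.17). The exact intervals in this paragraph cover counting error only and leave out the spread between libraries. Lag3 had a log2 fold change of 1.43 (SE 0.42, adjusted p = 0.11), with pooled reads in OT-II at 0.237 of those in DKO-labelled samples (0.177 to 0.312). In WT hosts pooled Lag3 reads per sequenced read were close, at a ratio of 0.965 (0.555 to 1.64), from 23 OT-II and 43 DKO-labelled reads.

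For Pdcd1 the genotypes overlapped in both hosts, with an average genotype effect of -0.13 (95% interval -0.46 to 0.20). For Btla it was 0.10 (-0.12 to 0.33), with both DKO-labelled values above both OT-II values in RIPmOVA hosts (0.36, SE 0.15, adjusted p = 0.21 in limma) and an overlap in WT hosts. For Cd200 it was -0.39 (-0.80 to 0.02), with all 3 DKO-labelled values below both OT-II values in WT hosts (-0.60, SE 0.24, adjusted p = 0.58) and an overlap in RIPmOVA hosts.

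The interaction, the host effect in DKO-labelled samples minus that in OT-II samples, was called for 0 of 8 genes in limma, against 0.0173% of the genes tested, and 2 had an unadjusted p of 0.05 or less, against 9.32%. These were Lag3 (1.40, SE 0.57, 95% interval 0.12 to 2.68, adjusted p = 0.52) and Btla. For Tigit it was -0.95 (SE 0.65, -2.43 to 0.52), for Cd160 -0.86 (SE 0.64, -2.31 to 0.58), for Pdcd1 -0.12 (SE 0.29, -0.78 to 0.55) and for Cd200 0.44 (SE 0.36, -0.38 to 1.26). For none of the 8 was a difference between the host effects of the 2 genotypes shown at this depth and number of libraries.

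Ratios within a library do not depend on its scaling, and are given as a description. All but the last, Icos over Cd28, hold Pdcd1, the only gene examined here whose own level separated the hosts. They are therefore not separate findings. Pdcd1 was 14.1% to 21.5% of Cd28 in RPKM in WT hosts and 26.0% to 42.0% in RIPmOVA hosts. The 7 genes other than Cd28 and Icos summed to 29.1% to 32.6% of Cd28 and Icos in WT hosts and to 37.6% to 61.2% in RIPmOVA hosts, so the hosts did not overlap. Btla divided by Pdcd1 was 1.10 to 1.47 in WT hosts and 0.503 to 0.834 in RIPmOVA hosts, with both OT-II samples (0.503 and 0.541) below both DKO-labelled samples (0.710 and 0.834). Since Cd28 was lower in DKO-labelled samples, Icos was 51.4% to 60.2% of Cd28 in these and 46.7% to 53.0% in OT-II samples.

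**Figure D4:**
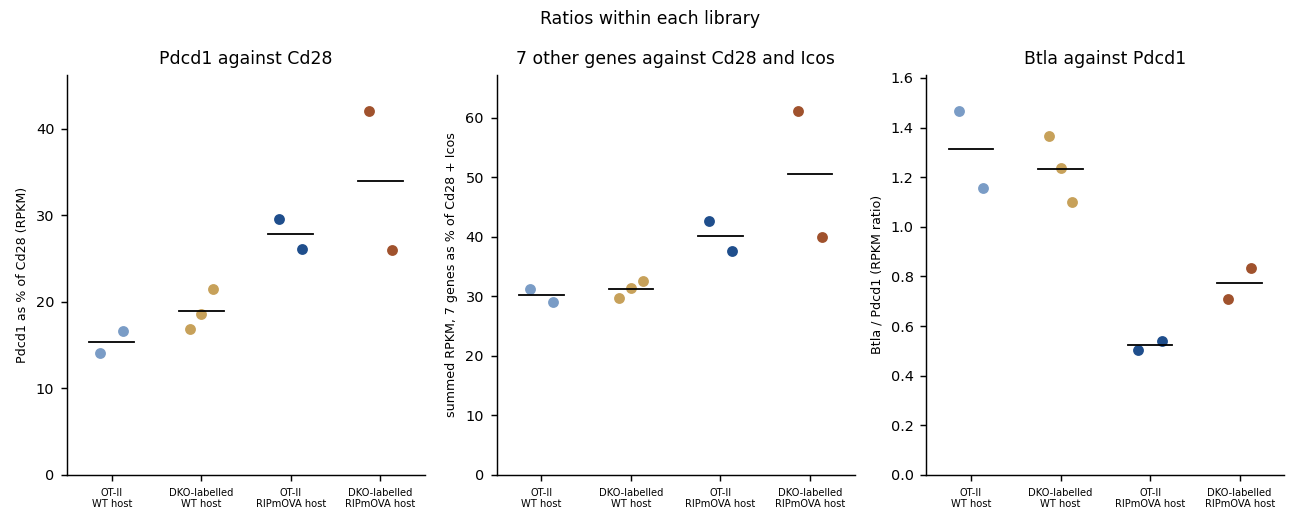
Ratios of RPKM within each library (y axes from 0) by group (x axis), with points for libraries and a line for the group mean: Pdcd1 as a percent of Cd28, the 7 other genes as a percent of Cd28 and Icos, and Btla divided by Pdcd1. In each panel the 4 samples of RIPmOVA hosts lie apart from the 5 of WT hosts, with Btla over Pdcd1 at 0.834 or less against 1.10 or more. Each panel holds Pdcd1, which separated the hosts by itself.

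Other genes of these pathways were counted from 4 lists. Their calls are from the fit with all libraries and without the sensory receptor covariate, and other fits are not given for them. Of 20 ligands and counter-receptors, 13 were tested, and 1 was called between hosts in OT-II, 2 in DKO-labelled samples, all higher in RIPmOVA hosts, and 2 between genotypes in RIPmOVA hosts, both lower in DKO-labelled samples. Over all genes tested these comparisons called 1.23%, 1.68% and 1.07%. Pdcd1lg2, which encodes the PD-1 ligand PD-L2, was 0.374 to 1.40 RPKM in WT hosts, 2.73 and 2.67 RPKM in OT-II and 6.60 and 3.48 RPKM in DKO-labelled samples of RIPmOVA hosts, and rose in DKO-labelled samples (log2 fold change 2.36, SE 0.34, adjusted p = 0.0073 in limma). Tnfsf14, which encodes LIGHT, a ligand of HVEM, was 0.466 to 1.74 RPKM in WT hosts, 1.31 and 1.77 RPKM in OT-II and 7.83 and 3.72 RPKM in DKO-labelled samples of RIPmOVA hosts (2.16, SE 0.40, adjusted p = 0.022, in DKO-labelled samples). Like Lag3, both were highest in the DKO-labelled pair of RIPmOVA hosts. In WT hosts Pdcd1lg2 reached 1 RPKM only in OT-II replicate 1, so it passed the filter on low values only through RIPmOVA hosts.

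The other 2 called ligands differed between genotypes in RIPmOVA hosts. Fgl2, a fibrinogen-like protein related to the LAG-3 ligand FGL1, was 2.63 and 6.31 RPKM in OT-II and 0.400 and 0.438 RPKM in DKO-labelled samples of RIPmOVA hosts (log2 fold change -2.33, SE 0.47, adjusted p = 0.04 in limma). H2-Ab1, a chain of the MHC class II ligand of LAG-3, was 2.58 and 2.15 RPKM in OT-II and 0.489 and 0.266 RPKM in DKO-labelled samples of RIPmOVA hosts (-1.71, SE 0.33, adjusted p = 0.036). It rose between hosts in OT-II samples (1.61, SE 0.33, adjusted p = 0.049 in limma) and is also in the myeloid and dendritic list above. H2-Ab1 was at 0.586 RPKM or less in all other libraries. It thus passed the filter on low values only through OT-II samples of RIPmOVA hosts, which ties both of its calls to high levels there. Fgl2 was at 0.497 RPKM or less in every DKO-labelled sample, so it passed only through OT-II samples. Of 22 other coreceptors of the immunoglobulin family, 18 were tested and Cd7 was the one called: it fell in DKO-labelled samples between hosts (log2 fold change -2.13, SE 0.25, adjusted p = 0.0026), from 46.2 to 61.0 RPKM in WT hosts to 8.30 and 17.4 RPKM in RIPmOVA hosts, while OT-II samples went from 37.5 and 35.8 RPKM to 22.1 and 24.0 RPKM (-0.66, SE 0.27, adjusted p = 0.31). That comparison in DKO-labelled samples called 1.68% of all genes. On adjusted p alone, 8 of the 18 passed for the average host effect, against 6.75% of all genes. For the average genotype effect 3 passed, against 3.30%. Of 23 intracellular partners, among them the phosphatase genes Ptpn6 and Ptpn11, 22 were tested and 0 were called in any of the 7 comparisons in limma, with 3 passing on adjusted p alone for the average host effect, where 1.87% of all genes were called and 6.75% passed on adjusted p alone.

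Of 18 transcription factors known from chronically stimulated T cells, 15 were tested, and 3 rose between hosts in OT-II and 4 in DKO-labelled samples, against 1.23% and 1.68% of all genes called. The list was chosen with earlier results of these data known, so its count is not independent evidence. Median log2 fold changes between hosts for the 4 lists, in the order given, were 0.46, -0.15, 0.04 and 0.44 for OT-II cells. For DKO-labelled cells they were 0.21, 0.19, -0.13 and 0.05. Bhlhe40, Ikzf2 (HELIOS) and Tbx21 (T-bet) rose in both. Their average host effects were 4.43 (SE 0.28, adjusted p = 6.4e-05 in limma), 3.59 (SE 0.24, adjusted p = 7.5e-05) and 3.19 (SE 0.22, adjusted p = 7.5e-05). Bhlhe40 was listed at 0 in 1 and Tbx21 in another library of WT hosts. Both stayed under 1 RPKM in every sample of WT hosts (0.901 and 0.259 RPKM at most). They thus passed the filter on low values only through RIPmOVA hosts. Ikzf2 is also in the Treg list and Tbx21 in the NK list above. Nfatc1, a factor that acts downstream of calcium signaling, was 30.1 and 30.5 RPKM in OT-II and 80.0 and 55.5 RPKM in DKO-labelled samples of RIPmOVA hosts, and was 28.6 to 32.1 RPKM in all 5 samples of WT hosts. It was called higher in DKO-labelled than in OT-II samples of RIPmOVA hosts (1.12, SE 0.15, adjusted p = 0.0084) and between hosts in DKO-labelled samples (1.14, SE 0.14, adjusted p = 0.0032), with 0.02 (SE 0.15) between hosts in OT-II samples. None of the list was called in WT hosts between genotypes.

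The genes whose pattern over the 9 libraries was most like that of each tested gene were found by Pearson r of log2(RPKM + 0.5) among 10521 protein-coding genes. They are given as a description, with no test, and the 9 libraries share groups, chimeras and depth. For Pdcd1 they were Swap70 (r = 0.981), Ezh2 (0.977) and Rnf149 (0.977), and for Cd200 they were Nfkbia (0.985), Klf10 (0.965) and Cd74 (0.964). For Tigit they were Galm (0.985), Ahr (0.960) and Gsto1 (0.956), for Cd160 Chst2 (0.980), Mex3a (0.980) and Slc16a3 (0.963), and for Lag3 Kifc3 (0.984) and Rasgef1b (0.976). Chst2, Mex3a and Slc16a3 were themselves at 1.92 RPKM or less in every library. For Cd28 the nearest were Alkbh6 (0.985), Aktip (0.981) and Stap1 (0.977), and for Icos they were Ino80e (0.987), Spag7 (0.979) and Bnip2 (0.974). Btla had the lowest values, with Mettl15 (0.897), Fam111a (0.880) and Phf10 (0.870). None of the 8 genes was among the 3 nearest of another.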

How the data were processed

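The authors prepared cDNA with SMART-seq v4 and Nextera XT libraries, aligned paired reads to mm10 with STAR and GENCODE vM17, removed duplicates with Picard and summed exon reads per Entrez gene. The unit deposited by the authors is RPKM, rounded to 3 decimals. The authors compared groups with DESeq2. Depth was recovered from the steps between low values (100% of those examined per library came to whole reads within 0.1 of a read). The exact intervals of pooled reads and the floors cover counting error only. Intervals of log2 fold changes are from limma and cover the spread between libraries.

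The filter kept genes reaching 1 RPKM in 2 or more libraries, and log2(RPKM + 0.5) was fitted across all genes with limma 3.58.1 in R 4.3.3 (group means over 9 libraries, contrasts, eBayes with trend, two-sided, Benjamini-Hochberg adjustment over all genes kept). The fit was tested on simulated data in which only genes with a mean above those of Tigit, Cd160 and Lag3 were changed. That test therefore does not cover calls of such low genes. An exact permutation test of 2 against 2 libraries cannot go under p = 0.333, so none was used. Same-numbered OT-II and DKO-labelled libraries came from the same chimera per the labels; their deviations from group means correlated at 0.01, -0.24 and -0.08, and those of same-numbered samples across hosts, which share a number by label, at 0.10 to 0.23. Alternatives were other pseudocounts, filters, scalings and variance models, a voom fit to recovered reads, replicate blocks, a sensory receptor covariate and leaving out each library. Named genes were all 9 members, genes of each pathway list called in any comparison (at most 6 a list), and the 3 nearest genes of each tested member. The members and lists were chosen with earlier results of these data known. Coordinates are from GENCODE vM21. Python 3.11.15, pandas 2.3.3, scipy 1.17.1 and matplotlib 3.10.9 were used. Some genes that these rules name are not reported here.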

Additional observations from a re-analysis of the deposited data

How the results depend on the processing

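Of 1163 values of single genes under the alternatives, 1072 kept their direction and their side of the call, 53 lost a call, 16 gained one and 22 changed sign. The cause was not tested. Most of these values belong to results that were not called and so could not lose a call. Between hosts in DKO-labelled samples, Cd200 kept its call in 13 of 22 alternatives and Lag3 in 16 of 21. For the average host effect Tigit kept it in 6 of 20, Cd160 in 9 of 20 and Lag3 in 17 of 20. For the average genotype effect Tigit kept it in 8 of 19. The number of members called was 0 for the genotype effect in WT hosts, the interaction and the OT-II host effect under every alternative run. For the host effect in DKO-labelled samples (2 called) it was 1 with no filter, with a filter at RPKM 5 (where Lag3 was not tested), with no intensity trend and with the replicate number across hosts as a replicate block, 0 with the sensory receptor covariate, and 0 to 3 when single libraries were left out. For the genotype effect in RIPmOVA hosts (0 called) it was 1 with a pseudocount of 1, with quantile normalization, on adjusted p alone and without both WT-host samples with high sensory receptor sums, an alternative chosen after seeing the data, and 0 to 1 when single libraries were left out. For the average host effect (3 called) it was 1 with no filter, with quantile normalization and with no intensity trend, 0 with a filter at RPKM 5 (where Tigit, Cd160 and Lag3 were not tested), 5 on adjusted p alone, and 0 to 5 when single libraries were left out (0 without replicate 1 of OT-II or of DKO-labelled samples of RIPmOVA hosts, 5 without DKO-labelled replicate 2 of RIPmOVA hosts). For the average genotype effect (1 called) it was 0 with no filter, with a filter at RPKM 5 (where Tigit was not tested), with voom on recovered reads, with the covariate, with the chimera as a replicate block and without both WT-host samples with high sums, 2 on adjusted p alone, and 0 to 1 when single libraries were left out.

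The values that changed sign were near 0. Lag3 between genotypes in WT hosts was -0.01 with a pseudocount of 0.1, -0.14 with quantile normalization, -0.18 with voom, -0.27 without both WT-host samples with high sums, and -0.16 to 0.23 with single libraries left out. The Pdcd1 interaction was 0.04 with the covariate, 0.01 with either replicate block, and -0.46 to 0.23 with single libraries left out. Without both WT-host samples with high sums, Icos was -0.04 between hosts in DKO-labelled samples and 0.04 between genotypes in WT hosts. The Cd200 interaction, 0.44 (SE 0.36) in the reported fit, was -0.05 without them. Leaving out single libraries gave -0.04 to 0.11 for Icos and -0.04 to 0.43 for Btla between hosts in DKO-labelled samples, -0.53 to 0.16 for Pdcd1 and -0.46 to 0.13 for Cd200 between genotypes in RIPmOVA hosts, -0.20 to 0.04 for Pdcd1 between genotypes in WT hosts, -0.18 to 0.05 for the average host effect of Btla, and -0.30 to 0.04 for Pdcd1 and -0.01 to 0.22 for Btla in the average genotype effect. The chimera block changed no call of a member other than those of Tigit given above. The number block across hosts changed those of Lag3, Tigit and Cd200 given above, and called 78 genes of 142 between hosts within OT-II and 110 of 194 within DKO-labelled samples.

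Over all genes, the counts called ranged over the alternatives from 31 to 296 (host effect in OT-II, 142 reported), 87 to 565 (in DKO-labelled samples, 194), 20 to 585 (genotype effect in RIPmOVA hosts, 124), 2 to 100 (in WT hosts, 7), 0 to 159 (interaction, 2), 131 to 285 (average host effect, 216) and 46 to 106 (average genotype effect, 75). Where 1 library is left in a group, it is assumed to vary like the other groups. Tigit in DKO-labelled samples of WT hosts rests on 1 to 3 reads a library, so its level there is limited by depth.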
